A study of Mus musculus with 12 samples.

Results

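The disease effect without exercise was read in the cerebellum of 3 SCA1 sedentary mice set against 3 WT sedentary mice, which together are 6 of the 12 libraries of the study. The 6 libraries were chosen by their labels alone. SCA1 mice carried a knock-in of the human disease mutation at their own Atxn1 locus, and were heterozygous, with a long glutamine tract encoded by 1 of the 2 alleles, so that the expanded protein can be made wherever Atxn1 is active. WT mice were C57BL/6J littermates without the expansion. All 6 sedentary mice lived in group cages without a running wheel until 16 weeks of age, whereas the other 6 mice (3 WT exercise and 3 SCA1 exercise) had lived alone with a wheel since 4 weeks of age. Each library is the total RNA of 1 animal's cerebellum after removal of ribosomal RNA, and males and females were used without their sex being labelled.

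Spinocerebellar ataxia type 1 is an inherited loss of coordination caused by a longer glutamine tract in ataxin-1, a nuclear protein that binds the transcriptional repressor Capicua. Purkinje cells (PCs) are the only output neurons of the cerebellar cortex and are the cells best known to be damaged. They receive parallel fibres from granule cells and climbing fibres from the brainstem, respond to glutamate, release calcium from internal stores through the inositol trisphosphate receptor, and buffer it with calcium-binding proteins such as calbindin.

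Between 20556802 and 32127508 read pairs per sedentary library were counted on genes, and 20341 genes were tested. The tissue label fitted its markers, since the mean log2 CPM (counts per 1000000 counted pairs) of 18 granule cell genes lay between 7.95 and 8.88 in the 6 mice. Mouse 16 of the SCA1 sedentary group stood apart. Read pairs with several mapping places made up 6.38% of its library (95% Wilson interval 6.38% to 6.39%, counting error only), against 2.08% to 3.46% in the other 5, and its mean log2 CPM of 9 brainstem genes was 2.89, against −0.60 in mouse 194, −2.79 in mouse 195 and −3.06 to −2.46 in the WT mice. Of the defining brainstem genes, Hoxa5 was at 0 CPM in the 5 other sedentary mice and at 6.74 CPM in mouse 16. Values without mouse 16 are therefore given beside the list results. Mouse 194 had 1328 CPM of Xist, the RNA that coats the inactive X chromosome, while the other 5 had between 0.353 and 1.11 CPM. Conversely, Ddx3y of chromosome Y was at 0.0425 CPM in mouse 194 and between 56.9 and 73.8 CPM in the others, so sex cannot be told apart from that mouse within the SCA1 group. Each sedentary group held 3 animals, and the p-values rest on the spread within all 4 groups of 3, the exercised mice included.

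Promoter sequences were examined for 2 motifs, because ataxin-1 acts with Capicua, which binds octamers beginning TGAATG, and with the orphan receptor RORα, which binds AGGTCA half-sites. The windows of 250 bases before and 50 after the start site are from RefSeq on GRCm38.p6, 1 per gene and the furthest upstream where several were listed. Sdk1 is shown as the higher gene with the smallest p, Spred3 as a known Capicua target, and Pcp4 as the lower gene with the smallest p. Capitals mark TGAATGGG in Sdk1 (chr5:141241284-141241583, plus strand), TGAATGAA in Spred3 (chr7:29168598-29168897, minus strand) and TGACCT, the reverse complement of AGGTCA, in Pcp4 (chr16:96467356-96467655, plus strand).
Sdk1: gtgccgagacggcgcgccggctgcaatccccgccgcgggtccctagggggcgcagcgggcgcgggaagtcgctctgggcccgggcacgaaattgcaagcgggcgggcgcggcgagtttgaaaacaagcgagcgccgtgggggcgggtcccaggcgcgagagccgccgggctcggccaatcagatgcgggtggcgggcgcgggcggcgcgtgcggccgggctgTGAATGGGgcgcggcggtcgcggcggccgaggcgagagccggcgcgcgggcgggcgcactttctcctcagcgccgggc
Spred3: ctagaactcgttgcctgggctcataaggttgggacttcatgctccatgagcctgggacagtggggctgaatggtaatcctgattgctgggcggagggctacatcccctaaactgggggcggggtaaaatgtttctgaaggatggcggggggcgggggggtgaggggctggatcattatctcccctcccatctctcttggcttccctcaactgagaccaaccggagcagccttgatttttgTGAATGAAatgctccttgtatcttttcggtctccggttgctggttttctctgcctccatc
Pcp4: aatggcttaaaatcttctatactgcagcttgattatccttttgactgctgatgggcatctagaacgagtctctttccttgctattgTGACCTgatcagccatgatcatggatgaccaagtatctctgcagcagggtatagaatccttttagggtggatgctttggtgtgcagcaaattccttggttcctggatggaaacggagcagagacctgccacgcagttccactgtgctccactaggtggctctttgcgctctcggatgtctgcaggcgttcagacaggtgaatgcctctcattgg

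The octamer began 28 bases before the start site in Sdk1 and 10 bases before it in Spred3, and the half-site of Pcp4 began 164 bases before it. TGAATGAA, TGAATGGA, TGAATGAG or TGAATGGG was present on either strand in 4.56% of all 27025 promoters and in 3.31% of the 12334 promoters of tested genes. It was present in 6 of the 68 promoters of genes that DESeq2, the alternative test described further on, called higher in SCA1 mice (8.82%), namely Igf2, Kcnk2, Sdk1, Slc12a7, Trpv4 and Vwa3a, and in 1 of the 68 promoters of genes it called lower (1.47%), Sebox. AGGTCA was present in 12% of the promoters of tested genes, in 11.8% of the higher set and in 14.7% of the lower set. These shares are descriptions of letters in the windows, without a test.

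Differentially expressed genes (DEGs) had an adjusted p below 0.05 by edgeR's quasi-likelihood test and an absolute log2FC above 0.5, and 7 genes met both (0.0344% of those tested). Of these, 2 rose (0.00983%) and 5 fell (0.0246%). At an unadjusted p below 0.05, 1129 genes were higher (5.55%) and 926 lower (4.55%) in SCA1 mice. All 3 SCA1 mice lay above all 3 WT mice for 1139 genes (5.6%) and below them for 1171 genes (5.76%). These shares are the background for every count of list members below.

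Gcnt1, which encodes an enzyme that branches O-linked glycans (chromosome 19, positions 17303505 to 17350208 of GRCm39, minus strand), had the largest log2FC of the 7. It was counted at 8.27, 7.91 and 8.60 CPM in the WT mice and at 2.12, 2.17 and 2.31 CPM in the SCA1 mice. The groups did not overlap, and its log2FC was −1.91 ± 0.23 (SE, adjusted p = 0.0126). Pcp4, a small calmodulin-binding protein of PCs (chromosome 16, positions 96268806 to 96326997, plus strand), fell from 24.3 ± 1.23 to 10.8 ± 0.455 CPM (mean ± SD, n = 3 each), a log2FC of −1.17 ± 0.13 with an adjusted p of 0.0126 in edgeR's fit. Cep76, a centriolar protein (chromosome 18, positions 67750033 to 67774615, minus strand), had 117, 128 and 106 CPM in WT mice and 60.0, 67.0 and 70.1 CPM in SCA1 mice. Its lowest WT value was thus above its highest SCA1 value, with a log2FC of −0.83 ± 0.11 (edgeR adjusted p = 0.029).

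The other 2 genes that fell encode calcium sensors or buffers. Calb1, which encodes the calcium buffer calbindin (chromosome 4, positions 15881155 to 15908085, plus strand), had 634, 669 and 543 CPM in WT and 315, 339 and 393 CPM in SCA1 mice, so that the groups were separate at a log2FC of −0.82 ± 0.11 (edgeR adjusted p = 0.0398). Hpcal1, a neuronal calcium sensor (chromosome 12, positions 17739796 to 17841964, plus strand), had 206, 199 and 205 CPM in WT and 120, 139 and 124 CPM in SCA1 mice, a log2FC of −0.67 ± 0.10 (edgeR adjusted p = 0.0418). Without mouse 16 the log2FCs of the 5 genes that fell lay between −1.87 for Gcnt1 and −0.61 for Hpcal1. In bulk tissue, fewer cells of a type, such as PCs, and less RNA per cell cannot be told apart.

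The 2 genes that rose encode a cell adhesion molecule and a growth factor, and both are very long. Sdk1, an immunoglobulin-family adhesion molecule of synapses (chromosome 5, positions 141227245 to 142201341, plus strand), was at 5.62, 6.54 and 9.17 CPM in WT and at 19.99, 18.8 and 18.7 CPM in SCA1 mice. Even its highest WT value was less than its lowest SCA1 value, and the log2FC was 1.43 ± 0.17 (edgeR adjusted p = 0.0126). Nrg3, a neuregulin that signals to the receptor ErbB4 (chromosome 14, positions 38087063 to 39196036, minus strand), was at 30.9, 32.1 and 32.4 CPM in WT and at 50.3, 46.8 and 48.9 CPM in SCA1 mice, a log2FC of 0.61 ± 0.09 (edgeR adjusted p = 0.0451). For each of the 7 genes a two-sided exact permutation of the mice gave p = 0.1, the smallest that 3 against 3 can give.

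**Figure D1:**
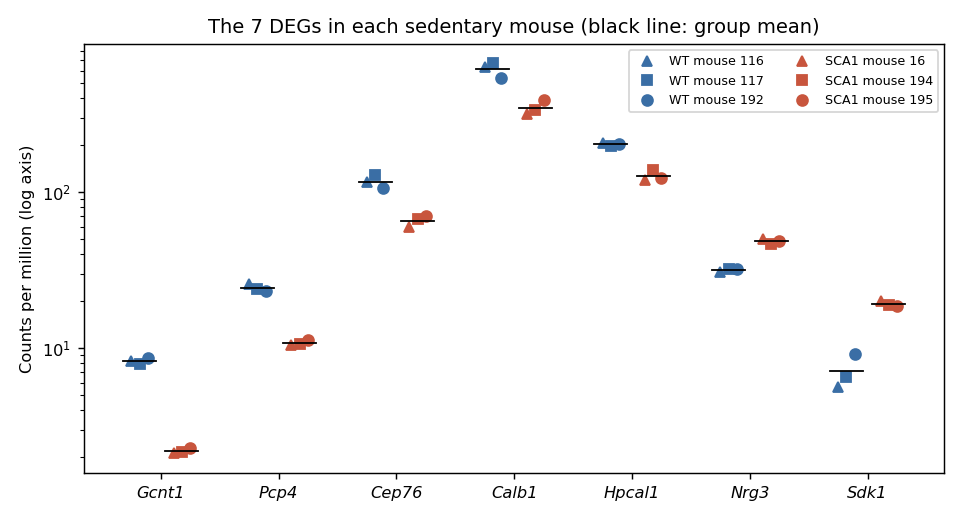
CPM of the 7 DEGs on a log axis in each of the 3 WT and 3 SCA1 sedentary mice, with the group mean as a black line. For every gene the 3 SCA1 points lie on 1 side of the 3 WT points, below them for Gcnt1, Pcp4, Cep76, Calb1 and Hpcal1 and above them for Nrg3 and Sdk1.

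DESeq2 on the same 12 libraries called 98 genes higher (0.508% of the 19302 it tested) and 105 lower (0.544%), and all 7 edgeR DEGs were among them. Of the 202 of these genes that edgeR also tested, 193 had groups that did not overlap. When mouse 16 was left out of the edgeR fit, 5 genes passed (0.0246%), among them Pcp4, Sdk1 and Gcnt1, with Stard9 and Cgn as additions. No gene passed when WT mouse 116 or 117 was left out, and between 3 and 47 passed when 1 exercised mouse was left out, the most without SCA1 exercise mouse 55. Without mouse 16 the genes at an unadjusted p below 0.05 came to 8.02% higher and 7.62% lower. Of the DESeq2 calls, 96 of 97 higher genes and 105 of 105 lower genes kept their sign with an unadjusted p below 0.05 without mouse 16, although the other SCA1 libraries in that fit are those on which the calls were made.

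Several lower genes stood just short of the threshold. Kcnip4, a calcium-binding partner of Kv4 potassium channels, had 120, 123 and 111 CPM in WT and 58.0, 67.2 and 80.8 CPM in SCA1 mice (log2FC −0.78 ± 0.12, edgeR adjusted p = 0.0532). Id2, an inhibitor of helix-loop-helix transcription factors, had 93.7, 84.6 and 67.9 CPM in WT and 45.7, 43.5 and 49.6 CPM in SCA1 mice, a log2FC of −0.83 ± 0.13. Ppp1r17, a PC inhibitor of protein phosphatases that is itself controlled by cGMP, stood at a log2FC of −0.81 ± 0.13, and Atl2, an atlastin that fuses tubules of the endoplasmic reticulum, at −0.66 ± 0.10. Stk17b, a kinase of the death-associated family, had a log2FC of −0.88 ± 0.15, and Tssk5, a kinase named for its use in testis, one of −1.73 ± 0.26. None of these 6 genes passed in edgeR's fit (edgeR adjusted p between 0.0532 and 0.0666), DESeq2 called all 6, and in each of them the groups did not overlap.

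Markers of PCs were lower in SCA1 mice for nearly the whole list. Of 22 marker genes tested, 21 had a negative log2FC, 2 of them fell as DEGs, 20 did not pass, and the median log2FC was −0.56, beside 0.02 over all genes. An unadjusted p below 0.05 in the lower direction was met by 16 of the 22, or 72.7%, and none met it in the higher direction. The mean log2 CPM of the list was 7.39, 7.44 and 7.35 in WT mice and 6.65, 6.91 and 6.80 in SCA1 mice. Without mouse 16 all 22 were lower, with a median of −0.45 and 17 at an unadjusted p below 0.05. Part of this list is known from earlier results of these data, so that its direction is a description.

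Members of the list differed in size, and those given next, chosen after their values were seen, did not pass in edgeR's fit. Gng13, a G-protein gamma subunit, had 87.9, 65.8 and 76.3 CPM in WT and 31.7, 44.1 and 31.4 CPM in SCA1 mice (log2FC −1.10 ± 0.20, edgeR adjusted p = 0.0853). Pcp2, a PC regulator of Gi and Go proteins, had 207, 189 and 207 CPM against 89.3, 151 and 105 CPM, with mouse 194 highest among the SCA1 mice and still below every WT mouse. Car8, which binds the inositol trisphosphate receptor, had 1175, 1275 and 1020 CPM against 628, 724 and 730 CPM (log2FC −0.74 ± 0.12, edgeR adjusted p = 0.0691). Rgs8, which speeds the shut-off of G proteins, had a log2FC of −0.68 ± 0.14, and its groups were also separate. Transcription factors that PCs carry had log2FCs of −0.47 for Lhx1, −0.41 for Lhx5 and −0.30 for Skor2. Foxp2, a further transcription factor, was the member with a positive log2FC, at 0.03 ± 0.26 with mouse 16 and −0.27 without it. Outside the list, the transcription factor Rora, which PCs need to mature, stood at −0.28 ± 0.14. Kcnma1, the large-conductance calcium-activated potassium channel, had 381, 466 and 428 CPM in WT and 309, 296 and 355 CPM in SCA1 mice (log2FC −0.41 ± 0.12, edgeR adjusted p = 0.276).

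Genes of metabotropic glutamate and calcium signalling were mostly lower. Of 29 genes tested, 23 had a negative log2FC and 17 had an unadjusted p below 0.05 in that direction (58.6%), 1 of them, Calb1, as a DEG. Their median was −0.40, and −0.30 without mouse 16. This list shares genes with the PC list, among them Calb1, Car8, Itpka, Inpp5a and Homer3. The G-protein subunits Gnaq and Gna11 stood at −0.09 and 0.05, and phospholipase Plcb3 stood at −0.70 ± 0.21, the inositol trisphosphate receptor Itpr1 at −0.43 ± 0.15, the inositol trisphosphate kinase Itpka at −0.69 ± 0.14, the phosphatase Inpp5a at −0.58 ± 0.12 and the scaffold Homer3 at −0.52 ± 0.14. Itpr1 had 4307, 4999 and 4767 CPM in WT and 2754, 3974 and 3692 CPM in SCA1 mice, so that mouse 16 was the lowest and the groups did not overlap. The ryanodine receptor gene Ryr2, of the same stores, was at 718, 793 and 865 CPM in WT and at 578, 1047 and 1063 CPM in SCA1 mice. Its log2FC was 0.18 ± 0.22 with mouse 16 and 0.43 without it.

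Of 23 genes of calcium-binding proteins, 3 fell as DEGs (Calb1, Pcp4 and Hpcal1, of which Pcp4 binds calmodulin and has no EF hand of its own), 20 did not pass, 7 were lower at an unadjusted p below 0.05 and none was higher. The median was −0.11, and −0.27 without mouse 16, when 11 were lower at that limit. Calm2, a calmodulin gene, had 581, 533 and 440 CPM in WT and 385, 355 and 369 CPM in SCA1 mice (log2FC −0.49 ± 0.12). Calm3, another, stood at 0.14 ± 0.19 with mouse 16 and at −0.13 without it. Parvalbumin (Pvalb), which PCs share with inhibitory interneurons, had 386, 313 and 323 CPM against 270, 245 and 189 CPM. Calretinin (Calb2), the buffer of granule cells, stood at 0.10 ± 0.20. A list of 20 genes that regulate kinases, phosphatases and G proteins in PCs shares genes with the PC list, among them Ppp1r17 and Stk17b. Of the 20, 12 were lower and 1 higher at an unadjusted p below 0.05, and the list median was −0.33, or −0.24 without mouse 16. The one higher was Rgs17, with 104 CPM in mouse 16 and 36.4 and 64.3 CPM in the other SCA1 mice, against 44.3 to 47.4 CPM in WT mice.

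Granule cell genes were lowest in mouse 16. Of 18 granule cell genes, 17 had a negative log2FC and 8 had an unadjusted p below 0.05, with a median of −0.32. The mean log2 CPM of the list lay between 8.82 and 8.88 in WT mice, and the SCA1 values were 7.95 (mouse 16), 8.71 (mouse 194) and 8.77 (mouse 195). Without mouse 16 the median was −0.11, 10 genes were lower and 8 higher, and 3 had an unadjusted p below 0.05. Among these 3 were genes of the cerebellins, which granule cells secrete onto PC spines. Cbln1 had 607, 530 and 481 CPM in WT and 275, 385 and 382 CPM in SCA1 mice (log2FC −0.63 ± 0.14, edgeR adjusted p = 0.166), and Cbln3 had 1006, 1014 and 825 CPM against 496, 623 and 812 CPM, so that both pairs of groups were separate. Gabra6, the GABA receptor subunit that defines granule cells, had 535, 511 and 477 CPM in WT and 284, 339 and 461 CPM in SCA1 mice.

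The 15 inhibitory interneuron genes had a median of 0.02, and of −0.07 without mouse 16, with 1 higher and 1 lower at an unadjusted p below 0.05. Gad1, which makes GABA, stood at −0.25 ± 0.11. Slc6a5, a glycine transporter that the brainstem also uses, stood at 1.28 ± 0.57 with all mice and at 0.14 without mouse 16. Among receptors, the GABA-B subunit Gabbr2 was at −0.26 ± 0.10 and the kainate receptor subunit Grik5 at 0.39 ± 0.11. None of 24 glutamate receptor genes, 19 GABA and glycine receptor genes or 30 calcium and sodium channel genes was a DEG, and the list medians were 0.08, −0.14 and 0.06. Without mouse 16 these were −0.04, −0.21 and −0.02, and 7 of the calcium and sodium channel genes were higher at an unadjusted p below 0.05, against 1 with it. For Cacnb4, the calcium channel subunit with the smallest p among those 30, the log2FC was −0.39 ± 0.17, and for Fgf12, a sodium channel partner, −0.22 ± 0.10.

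Of 37 potassium channel genes tested, 3 were higher and 3 lower at an unadjusted p below 0.05, and no DEG was among them. The median was 0.04, and −0.06 without mouse 16. Kcnb2, a delayed rectifier, had 17.7, 19.4 and 20.5 CPM in WT and 40.4, 30.9 and 43.6 CPM in SCA1 mice (log2FC 0.99 ± 0.23). Kcnk2, a mechanically gated leak channel, had 10.9, 11.9 and 11.6 CPM against 20.6, 13.7 and 16.5 CPM. Kcnd2, the Kv4 channel that Kcnip4 serves, had 419, 438 and 446 CPM against 228, 342 and 375 CPM. All 3 pairs of groups were separate, and DESeq2 called the first 2.

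The oligodendrocyte and microglial lists had medians of opposite sign with and without mouse 16. The mean log2 CPM of 18 oligodendrocyte genes was 6.43, 6.01 and 6.14 in WT mice, 7.11 in mouse 16, and 5.74 and 5.65 in mice 194 and 195. Mouse 16 was thus above all WT mice and the other SCA1 mice below them. The median log2FC of the list was 0.10 with mouse 16 and −0.48 without it, when all 18 genes were lower and 9 had an unadjusted p below 0.05. Mbp, the main myelin protein gene, had 1933, 1482 and 1759 CPM in WT, 3474 CPM in mouse 16, and 1466 and 1125 CPM in the other SCA1 mice. The 15 microglial genes had a median of 0.03 with mouse 16 and −0.29 without it. P2ry12, a purine receptor that marks resting microglia, stood at −0.32 ± 0.28 and at −0.66 without mouse 16. The 8 genes of oligodendrocyte precursors had a median of 0.26 with mouse 16 and 0.01 without it. Pdgfra, which defines them, had 45.2 CPM in mouse 16, 22.6 and 22.3 CPM in the other SCA1 mice and 20.8 to 23.4 CPM in WT mice, so that mouse 16 alone stood above the WT range.

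Bergmann glia, whose processes wrap PC synapses, and astrocytes shared a list. Of its 20 genes, 4 were lower at an unadjusted p below 0.05 and none higher, with a median of −0.12, and of −0.28 without mouse 16, when 19 of the 20 were lower. Slc1a3, the glutamate transporter of Bergmann glia, had 875, 910 and 788 CPM in WT and 635, 674 and 705 CPM in SCA1 mice (log2FC −0.35 ± 0.11, edgeR adjusted p = 0.322), and mouse 16 did not stand apart in it. Gdf10, a secreted factor that defines Bergmann glia, had 130, 127 and 94.4 CPM against 63.6, 94.2 and 82.1 CPM. Neither gene passed after adjustment, although the groups of both were separate.

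Lists of tissues that border the cerebellum varied from mouse to mouse. All 13 choroid plexus genes had a positive log2FC, and 8 had an unadjusted p below 0.05, but none had groups without overlap. Their median was 2.28, and 2.22 without mouse 16. Ttr, which choroid plexus makes in large amounts, was at 382, 131 and 3.89 CPM in WT mice and at 736, 1064 and 5.25 CPM in mice 16, 194 and 195. Mouse 195 was therefore close to the lowest WT mouse, and the spread within each group was wide. The 12 genes of meninges and fibroblasts had a median of 0.80, or 0.53 without mouse 16, and in 6 of them the groups did not overlap, all higher in SCA1 mice. Their mean log2 CPM was 2.15 to 2.71 in WT sedentary and 3.01 to 3.63 in SCA1 sedentary mice. In WT exercise mice it was 3.07 to 3.44, above every WT sedentary mouse. Slc13a4, a sulfate transporter of the meninges, had 5.68, 10.04 and 9.43 CPM in WT and 25.7, 22.6 and 16.7 CPM in SCA1 mice, and Igf2, a growth factor, had 0.410, 0.427 and 0.717 CPM against 2.54, 2.63 and 1.30 CPM. Their part in the other higher genes was not tested. Endothelial, mural and red blood cell genes had medians of 0.02, 0.18 and 0.22 and no DEG, and without mouse 16 medians of 0.17, 0.29 and 0.62. The 8 genes of forebrain and midbrain had a median of 0.35 that became −0.47 without mouse 16. The 9 brainstem genes had a median of 5.87 with mouse 16 and 2.91 without it.

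**Figure D2:**
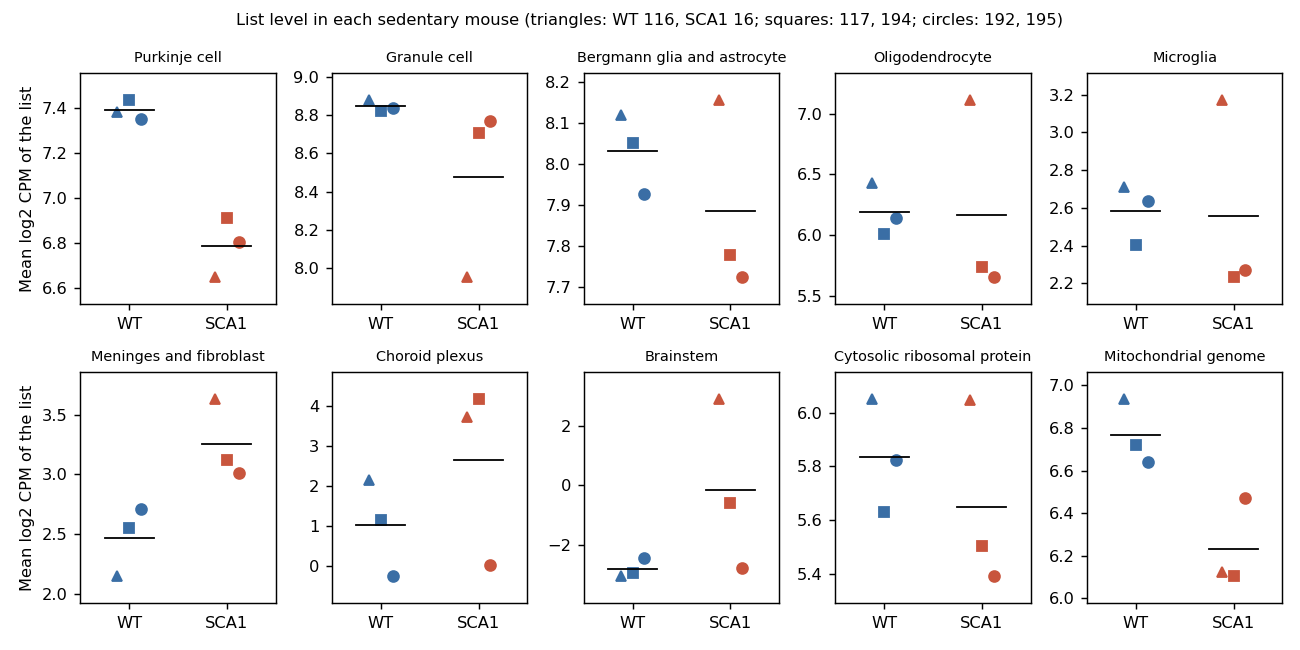
Mean log2 CPM of the genes of 10 lists in each sedentary mouse, with WT mice in blue, SCA1 mice in red and the group mean as a black line. Mouse 16 (red triangle) is the highest point for oligodendrocyte, microglia, brainstem, and meninges and fibroblast genes, and narrowly for Bergmann glia and astrocyte genes. It is the lowest point for Purkinje and granule cell genes. All 3 SCA1 mice lie below the WT mice for the Purkinje cell, granule cell and mitochondrial genome lists, and above them for the meninges and fibroblast list.

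Higher genes near the threshold included long neuronal genes. Robo1, a receptor for the guidance cue Slit, had 43.6, 46.0 and 52.4 CPM in WT and 92.6, 72.4 and 69.7 CPM in SCA1 mice (log2FC 0.72 ± 0.12, edgeR adjusted p = 0.0756). Lrp1b, a receptor of the low-density lipoprotein family, had 152, 150 and 142 CPM against 251, 254 and 299 CPM (log2FC 0.86 ± 0.15, edgeR adjusted p = 0.0899). In both, every SCA1 mouse was above every WT mouse. Asl, an enzyme of arginine synthesis, had 12.1, 13.1 and 12.6 CPM against 21.5, 20.2 and 22.4 CPM (log2FC 0.76 ± 0.12, edgeR adjusted p = 0.0536), and the chromatin-binding gene Trim66 a log2FC of 0.66 ± 0.10. Further from the threshold, Cit, a kinase of cell division and of neurons, stood at 0.61 ± 0.12 (edgeR adjusted p = 0.12). The anchoring protein gene Akap13 stood at 0.57 ± 0.12 and the receptor Notch2 at 0.65 ± 0.14 (edgeR adjusted p = 0.15 for each). Mean CPM in WT sedentary, SCA1 sedentary and WT exercise mice was 132.5, 202.5 and 148.5 for Cit. It was 30.43, 45.02 and 42.34 for Akap13 and 51.69, 81.25 and 76.08 for Notch2. None of these 7 genes passed in edgeR's fit.

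Other higher genes with groups that did not overlap had low counts, and they did not pass either. Zfp185 had 2.68, 3.14 and 0.818 CPM in mice 16, 194 and 195 against 0.284 to 0.453 CPM in WT mice, and the homeobox gene Msx1 had 5.26, 5.61 and 2.17 CPM against 1.02 to 1.11 CPM. Both were lowest, among SCA1 mice, in mouse 195, where Ttr was also lowest. Moxd1, a monooxygenase gene, had 3.18, 3.23 and 3.61 CPM against 0.947, 0.556 and 0.189 CPM and did not show that order. In WT exercise mice the mean CPM was 3.10 for Zfp185, 6.06 for Msx1 and 3.83 for Moxd1, above every WT sedentary value. The log2FCs in exercised mice were −0.90, −0.10 and −0.05 for these genes. The part of choroid plexus in these values was not tested.

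Of 46 genes of synaptic adhesion, 1 rose as a DEG (Sdk1), 45 did not pass, 3 were higher and 2 lower at an unadjusted p below 0.05, and 31 had a positive log2FC (median 0.14, and 0.05 without mouse 16). The 2 lower were Cbln1 and Cbln3. Of 12 neuregulin and ErbB genes, Nrg3 rose and 11 did not pass, and the median was 0.17 with mouse 16 and −0.00 without it. The ligand Nrg4 had 4.51, 3.76 and 3.51 CPM in WT and 1.80, 2.25 and 2.89 CPM in SCA1 mice (log2FC −0.77 ± 0.23, edgeR adjusted p = 0.291), opposite in sign to Nrg3. The receptor Erbb4 stood at 0.42 ± 0.14, with 127 CPM in mouse 16 against 78.8 and 94.5 CPM in the other SCA1 mice and 68.9 to 80.1 CPM in WT mice.

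When 14642 protein-coding genes were ranked by span, the distance from first to last annotated base, 11.2% of the longest decile (above 147000 bases) were higher at an unadjusted p below 0.05 and 4.85% lower. In the shortest decile, 3.89% were higher and 6.75% lower. The median log2FC was 0.08 in the longest and −0.03 in the shortest decile, and without mouse 16 these were 0.05 and −0.15. Without mouse 16, 183 of the 1465 genes of the longest decile were higher at that limit and 75 lower, beside 8.02% and 7.62% of all genes. In both of these deciles the levels of the mice overlapped between genotypes. The shortest decile lay 0.20 above the 6-mouse mean (median log2 CPM difference) in mouse 16 and 0.13 above it in WT mouse 116, and 0.05 and 0.23 below it in mice 194 and 195. In the longest decile this difference was 0.03 in WT mouse 192 and −0.01 in SCA1 mouse 194. Read pairs that met no exon on the counted strand, intronic pairs among them, made up 39.3% of the library of mouse 16, 46.0%, 51.8% and 50.5% of the WT libraries, and 52.7% and 58.7% of those of mice 194 and 195. Their part in the relation to length was not tested.

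**Figure D3:**
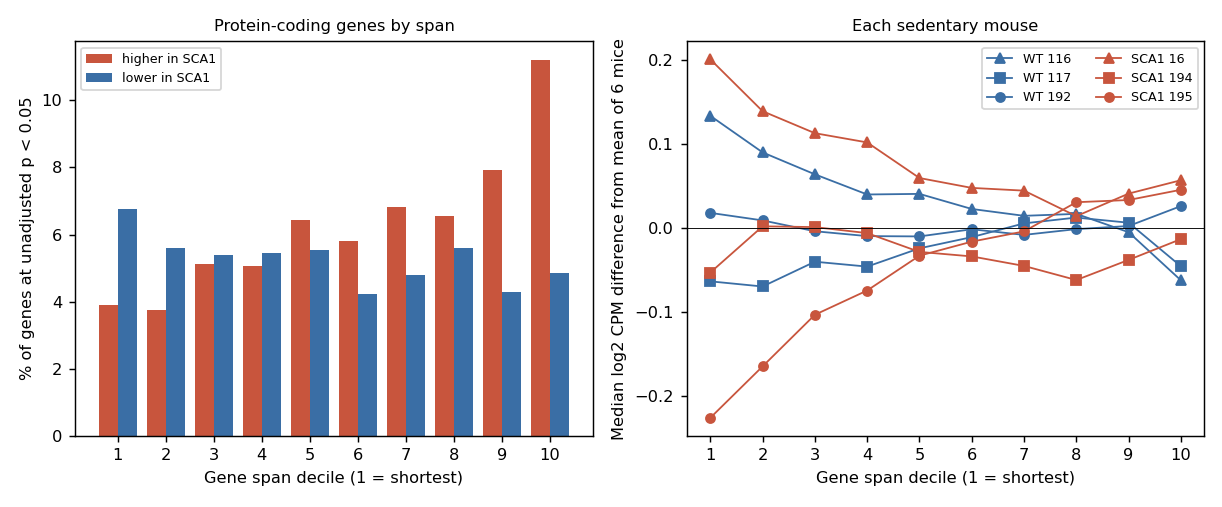
Left, percentage of protein-coding genes at an unadjusted p below 0.05 in each decile of gene span, higher in red and lower in blue. Right, median difference in log2 CPM of each sedentary mouse from the mean of the 6 mice in the same deciles. The longest decile holds the most higher genes (11.2%), whereas the lines of mice 16 and 195 part in opposite directions among short genes.

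The mitochondrial genome was lower in all 3 SCA1 mice. Of its 11 protein-coding genes tested, 8 were lower at an unadjusted p below 0.05, none was higher, and the groups of 7 did not overlap. Their median was −0.49, and −0.54 without mouse 16. mt-Nd1, a subunit of complex I, had 2322, 1950 and 1844 CPM in WT and 1235, 1135 and 1545 CPM in SCA1 mice (log2FC −0.64 ± 0.14, edgeR adjusted p = 0.162). mt-Nd2, another subunit, had 1732, 1556 and 1285 CPM against 782, 853 and 1209 CPM. mt-Co1 of complex IV had 8643, 7350 and 6483 CPM against 5801, 4578 and 5654 CPM. None was a DEG in edgeR, while DESeq2 called mt-Nd1 and mt-Nd2 of the 11. The ribosomal RNA mt-Rnr2, whose level also depends on the depletion step, had 7552, 9130 and 13760 CPM in WT and 3696, 2628 and 6587 CPM in SCA1 mice. mt-Atp6, mt-Co2, mt-Co3 and mt-Nd3 were at or below 1.93 CPM in each sedentary mouse, low for this genome, and reads shared with nuclear copies are not counted when they map to several places. Nuclear genes of oxidative phosphorylation had a median of −0.08 over 79 genes and of −0.25 without mouse 16. Ndufb4, the one of them with the smallest p, stood at −0.48 ± 0.16, and Ndufs4 at −0.30 ± 0.11.

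Ribosomal protein genes varied among the SCA1 mice. Their mean log2 CPM over 80 genes was 6.05, 5.63 and 5.82 in WT mice, 6.05 in mouse 16, and 5.50 and 5.39 in mice 194 and 195. With mouse 16, 71 of the 80 had a negative log2FC, 8 were lower at an unadjusted p below 0.05 and the median was −0.17. Without it, 58 of the 80 were lower at that limit and the median was −0.40. Rps27 stood at −0.55 ± 0.15 and Rps24 at −0.39 ± 0.12. The replication-dependent histones, whose messages lack a poly(A) tail, had a median of −0.30 over 50 genes, 7 lower at an unadjusted p below 0.05 and none higher. Without mouse 16 the median was −0.47 and 18 were lower at that limit. H2bc27 stood at −0.56 ± 0.14 and H2bc26 at −0.80 ± 0.23. Across the 6 mice these short genes had their lowest mean levels in mouse 195, the library with the largest share of read pairs that met no exon, and the relation was not tested.

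Proteasome subunits had a median of −0.06 (−0.22 without mouse 16) over 37 genes, 3 of them lower at an unadjusted p below 0.05, and chaperones a median of 0.00 (−0.18) over 34 genes. Psma4 stood at −0.33 ± 0.12 and the chaperone Dnajb6 at −0.19 ± 0.09. The 22 genes of cholesterol synthesis had a median of 0.20 with mouse 16 and −0.18 without it, and Lss, lanosterol synthase, was the only one higher at an unadjusted p below 0.05, with 47.2, 48.9 and 47.7 CPM in WT and 56.9, 58.7 and 57.9 CPM in SCA1 mice. Mouse 16 did not stand apart in Lss. Splicing regulators had a median of −0.04 over 48 genes, with 2 higher and 4 lower at an unadjusted p below 0.05. Without mouse 16 the median was 0.03, with 7 higher and 3 lower. Rbfox1, a neuronal splicing factor, stood at −0.37 ± 0.12, and Nova2, another, at 0.30 ± 0.10. Of 20 genes of centrioles and cilia, Cep76 fell and 19 did not pass, and of 22 glycosyltransferases, Gcnt1 fell and 21 did not pass. The medians of these lists were −0.04 and 0.03, and 0.03 and −0.00 without mouse 16. St6galnac5, a sialyltransferase, had 3.22, 2.69 and 3.89 CPM in WT, 14.97 CPM in mouse 16, and 4.80 and 7.12 CPM in the other SCA1 mice.

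Lists of activity and of defence had positive medians that were nearer 0 without mouse 16. Of 19 immediate early genes, which neurons switch on within minutes of stimulation, 7 were higher at an unadjusted p below 0.05 and none lower, with a median of 0.49 that became 0.09 without mouse 16, when 3 remained at that limit. Fos had 2.11, 5.64 and 4.11 CPM in WT mice and 45.9, 15.5 and 2.55 CPM in mice 16, 194 and 195. Mouse 195 was thus within the WT range. Nr4a3 had 5.996, 7.18 and 9.09 CPM against 27.3, 16.3 and 11.6 CPM, and its groups were separate (log2FC 1.31 ± 0.32, edgeR adjusted p = 0.219), as were those of Klf4 (log2FC 0.70 ± 0.23). Of 19 genes of inflammation and interferon response, 7 were higher at an unadjusted p below 0.05 and 5 had groups without overlap, with a median of 0.37, and 0.21 without mouse 16. Oasl2, an interferon-induced gene, had 3.09, 1.54 and 2.04 CPM in WT and 4.73, 4.71 and 3.897 CPM in SCA1 mice, and Isg15, another, had 0.600, 0.299 and 0.302 CPM against 1.31, 0.934 and 0.770 CPM.

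Atxn1 itself, which the mutation alters, had 148, 148 and 162 CPM in WT and 163, 161 and 193 CPM in SCA1 mice (log2FC 0.17 ± 0.11, edgeR adjusted p = 0.636). The expanded and normal alleles are counted together. Of 18 genes of the ataxin-1 complex, 1 was higher and 1 lower at an unadjusted p below 0.05, with a median of −0.06, and of −0.03 without mouse 16. The lower was the transcription factor Sp1, at −0.23 ± 0.10. The repressor gene Cic stood at 0.23 ± 0.12 (edgeR adjusted p = 0.567), and at 0.34 without mouse 16. Of 17 genes that Capicua is known to repress, 4 were higher at an unadjusted p below 0.05 and none lower, with a median of 0.19 and of 0.08 without mouse 16, when 1 remained at that limit. That gene was Spred3, whose promoter is shown above, with 28.1, 28.5 and 35.8 CPM in WT and 36.5, 46.5 and 37.7 CPM in SCA1 mice (log2FC 0.39 ± 0.13, edgeR adjusted p = 0.353). Of 31 genes of inherited ataxias, Atxn1 included, 4 were lower and none higher at that limit, and without mouse 16 4 were lower and 4 higher.

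**Figure D4:**
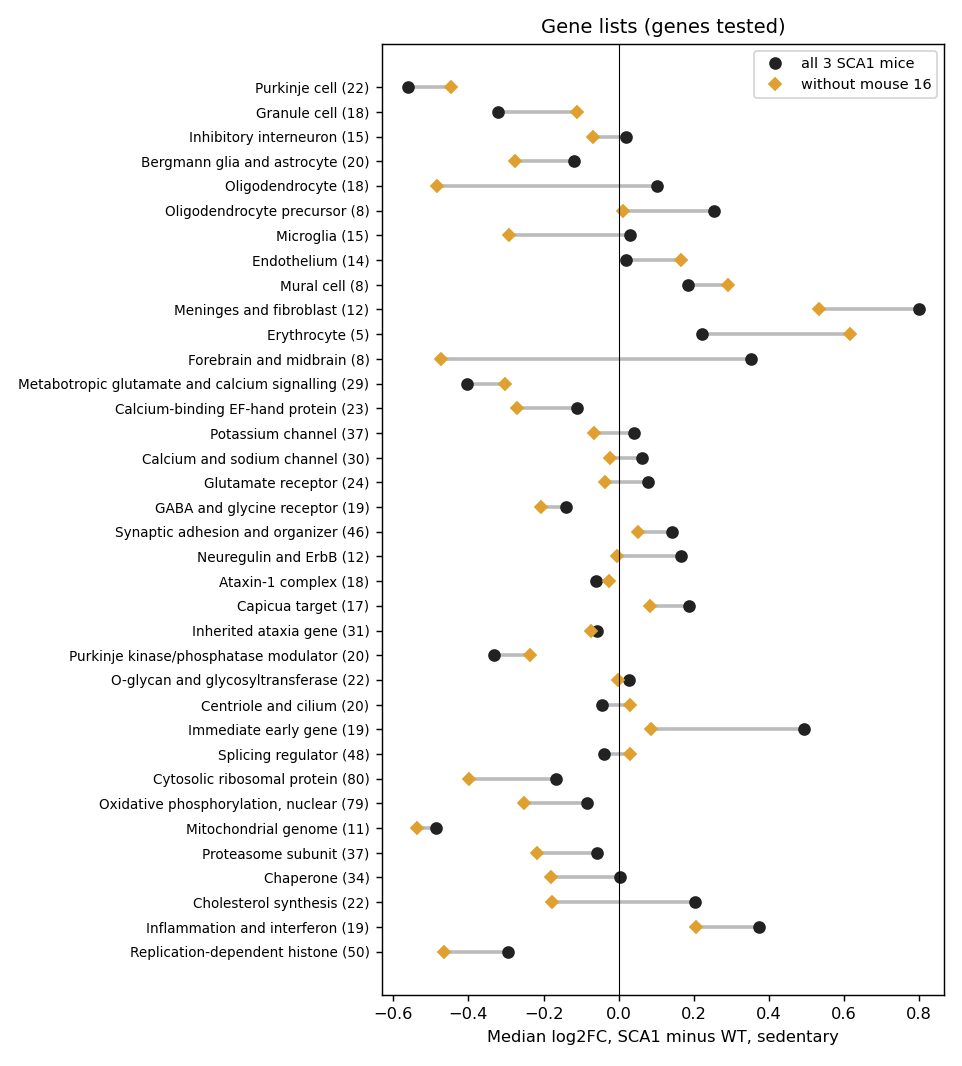
Median log2FC of SCA1 minus WT sedentary mice for the genes of each list, with the number of genes tested in parentheses, for all 3 SCA1 mice (black circles) and without mouse 16 (orange diamonds). The choroid plexus, brainstem and sex marker lists are not plotted. Purkinje cell genes lie near −0.56 and −0.45, while oligodendrocyte genes move from 0.10 to −0.48.

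Over classes of transcript, 6.26% of 14642 protein-coding genes were higher and 5.25% lower at an unadjusted p below 0.05, and 4.32% and 4.15% of 2455 long noncoding RNAs. Of 213 microRNA genes, 10 were higher (4.69%) and 1 lower (0.469%), and of 564 processed pseudogenes, 10 were higher (1.77%) and 0 lower. Both higher shares were below the 5.55% over all genes. The median log2FCs of these last classes were 0.14 and 0.12, and 0.29 and 0.33 without mouse 16, when 31 microRNA genes and 69 processed pseudogenes were higher at that limit. By chromosome, the mitochondrial genome had the largest lower share, with 11 of 19 genes, and the share of lower genes on the nuclear chromosomes other than Y lay between 2.88% on chromosome 7 and 5.93% on chromosome 12. By level, 10.8% of the protein-coding genes in the lowest quartile of average log2 CPM were higher and 2.9% lower, whereas 4.45% of those in the highest quartile were higher and 7.4% lower. These shares rested in part on mouse 16. Without it, 233 genes of the lowest quartile were higher and 150 lower (395 and 106 with it), and 377 of the highest quartile were higher and 457 lower (163 and 271 with it).

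The genotypes were also compared after exercise, in 6 mice that share no library with the sedentary groups. No gene was a DEG there in edgeR's fit, and DESeq2 called 3. In edgeR's fit 596 genes had an unadjusted p below 0.05 (1.45% of genes higher and 1.48% lower). That is fewer than this limit alone would give if no gene differed. All 7 sedentary DEGs kept their sign. Sdk1 stood at 0.72 ± 0.17, Nrg3 at 0.30 ± 0.09, Gcnt1 at −0.76 ± 0.22, Pcp4 at −0.60 ± 0.13, Cep76 at −0.39 ± 0.11, Hpcal1 at −0.32 ± 0.10 and Calb1 at −0.27 ± 0.11. Each of these was nearer 0 than its sedentary value. The 7 genes were picked for their extreme sedentary values, and such a choice alone makes smaller values likely in other mice. The difference between the contrasts was tested as the interaction of genotype and exercise, and no gene passed in edgeR, while DESeq2 called 2. An unadjusted edgeR p below 0.05 was met by 769 genes (3.78%), again fewer than the limit alone would give. For Calb1 the unadjusted interaction p was 0.00478 and the adjusted p 0.9999 in edgeR's fit.

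Of the sedentary DESeq2 calls, 98 of 105 lower genes and 56 of 97 higher genes had the same sign in exercised mice, a pair of shares whose difference was not tested. Over all 20341 genes tested the same-sign share was 59.5%, and 45.4% without mice 16 and 55, so that the higher calls were near the share of all genes. Lrp1b (0.69 ± 0.15) and Kcnb2 (0.88 ± 0.23) were among the higher genes of like size in both contrasts, whereas Notch2 (−0.07 ± 0.14) and Msx1 (−0.10 ± 0.38) were not. The PC list had a median of −0.22 in exercised mice with 21 of 22 genes lower, and the metabotropic glutamate and calcium list one of −0.20. The list of PC kinase and phosphatase regulators also kept its sign, at −0.195, and so did the granule cell list, at −0.23 with 16 of 18 genes lower. The mean log2 CPM of the granule cell list was 8.26 in mouse 55 and 8.80 and 8.71 in the other SCA1 exercise mice. WT exercise mice lay between 8.76 and 8.80. The oligodendrocyte list was at 0.53, the sign of its sedentary median with mouse 16 (0.10) but not without it (−0.48). Its mean log2 CPM was 6.75 in mouse 55 and 5.70 and 6.19 in the other SCA1 exercise mice. WT exercise mice lay between 5.65 and 5.78. Some lists had values of another sign or near 0, with ribosomal proteins at 0.25, histones at 0.51, choroid plexus at −0.37, meninges and fibroblasts at −0.22 and the mitochondrial genome at 0.06. The choroid plexus list was at 3.88 to 4.84 log2 CPM in WT exercise mice, above the −0.26 to 2.15 of WT sedentary mice. Over 16977 genes with an average log2 CPM of at least 0, the log2FCs of both contrasts had a Pearson r of 0.48, and of −0.12 when mice 16 and 55, the SCA1 mice with the highest brainstem levels, were left out. These coefficients are across genes, which are not independent replicates.

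**Figure D5:**
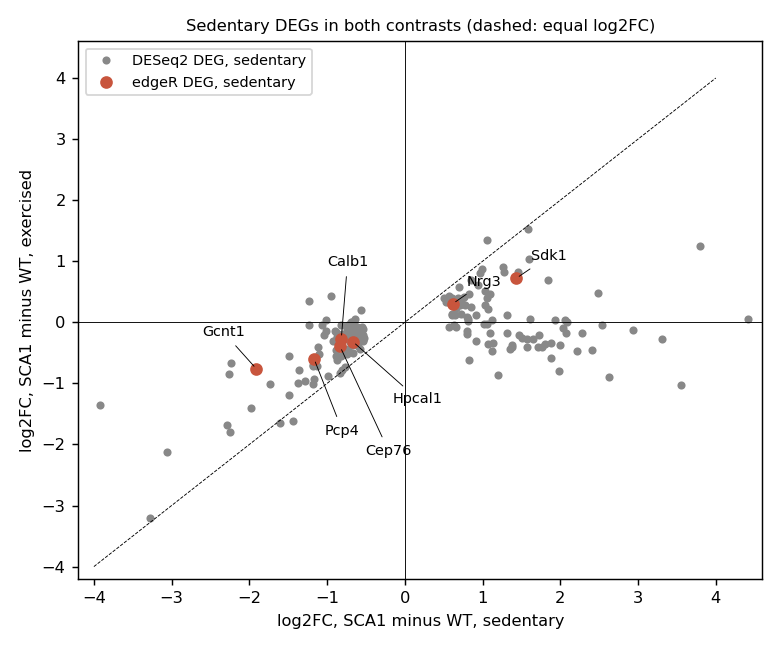
log2FC of SCA1 minus WT in sedentary mice (x) and in exercised mice (y) for the DESeq2 DEGs of the sedentary contrast that edgeR tested (grey, 201 without Xist, of which 4 lie beyond the axes) and for the 7 edgeR DEGs (red, named). Lower genes mostly fall at the lower left (98 of 105), whereas higher genes lie on both sides of 0 on the exercised axis (56 of 97 above).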

How the data were processed

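Total RNA of the cerebellum of 12 mice (3 per group) was sequenced after removal of ribosomal RNA. The authors trimmed reads with fastp 0.24.0 and aligned them to GRCm39 with STAR 2.7.10a, and they deposited counts of read pairs per gene for each library. Reverse-strand counts were used as deposited, without the 4 summary rows. Pairs that map to several places are not in these counts, which lowers genes with close copies. The study adjusted the preparation of 2 libraries of lower RNA integrity, which are not marked here.

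Groups came from the labels. Genes passing edgeR's filter for low counts (20341) were fitted with edgeR 4.0.16 (TMM, quasi-likelihood test, 4 groups, 12 libraries, R 4.3.3) and adjusted by Benjamini-Hochberg. The fit was checked on data with known changes. Library totals were between 20556802 and 32127508 read pairs on genes in sedentary mice, and intervals cover counting error only. Levels are CPM over the TMM-scaled totals, with a prior count of 2 before taking log2. Of 56941 genes, 56323 matched GENCODE M39 and 618 did not. Alternatives were DESeq2 1.42.0, other filters and scalings, unstranded counts, fits to 2 groups, and leaving mice out.

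The members and the 39 lists were chosen with earlier results of these data known. Named genes are every DEG, the 12 higher and 12 lower genes of smallest p with an average log2 CPM of at least 0, an absolute log2FC above 0.5 and groups that do not overlap, the 2 genes of smallest p and the first cell type marker of each list, and Atxn1, Cic, Rora, Kcnma1, Xist and Ddx3y. Not every such gene is described. Named outside this rule, after their values were seen, were Calb2, Calm2, Calm3, Car8, Cgn, Erbb4, Foxp2, Gna11, Gnaq, Gng13, Homer3, Inpp5a, Itpka, Itpr1, Kcnd2, Lhx1, Lhx5, Pcp2, Plcb3, Pvalb, Rgs8, Rgs17, Ryr2, Sebox, Slc12a7, Skor2, Stard9, Trpv4, Vwa3a and the mitochondrial genes other than mt-Nd1 and mt-Nd2. Some results are not reported here.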

Additional observations from a re-analysis of the deposited data

How the results depend on the processing

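The 7 sedentary DEGs of edgeR became 203 with DESeq2 on all 12 libraries, 102 with DESeq2 and 0 with edgeR on the 2 groups compared, 76 when genes with at least 1 count were kept, 1 with chromosome Y expression as a covariate, and 188 when mice 16 and 55 were left out. Leaving out 1 mouse gave between 0 and 47. For the exercised contrast, with 0 DEGs, DESeq2 gave 3 on all libraries and 78 on the 2 groups, leaving out mice 16 and 55 gave 39, and leaving out 1 mouse gave between 0 and 5. For the interaction, also with 0, DESeq2 gave 2, and leaving out 1 mouse between 0 and 1. Among named genes, the log2FC of Mbp was −0.397 without mouse 16 or without mice 16 and 55, and between −0.397 and 0.515 with 1 mouse left out. On leaving out mouse 16, or mice 16 and 55, Calm3 stood at −0.131, Foxp2 at −0.267 and Gna11 at −0.0108, and with 1 mouse left out they lay between −0.131 and 0.303, −0.267 and 0.364, and −0.0108 and 0.104. The log2FC of Hoxa5 was 0 without mouse 16, with a range of 0 to 9.42. Xist stood at −0.952 and Ddx3y at 0.192 with the chromosome Y covariate, and leaving out 1 mouse gave −0.542 to 9.49 for Xist and −1.07 to 0.0337 for Ddx3y. Over the lists and all alternatives, 24 medians moved by more than the spread between mice and 831 did not. That spread was the SD of the list level within the sedentary groups, mouse 16 included, so the count does not measure stability. The oligodendrocyte medians, between −0.484 and 0.386, and the microglial ones, between −0.292 and 0.161, were all among the 831. For named genes, 2231 values kept their direction and their side of the threshold, 169 newly passed it and 60 no longer did. The causes were not tested. No paired analysis was possible because the groups share no replicate numbers. Mice 16 and 194 limit the sedentary values, the first by brainstem markers and the second by sex markers that its group mates do not share.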

Other observations

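The genes given here were chosen after their values were seen, and none passed in edgeR. Meg3, a long noncoding RNA of the imprinted Dlk1-Dio3 region, had 1419, 1934 and 2112 CPM in WT sedentary mice and 2514, 3632 and 3359 CPM in SCA1 sedentary mice, a log2FC of 0.80 ± 0.18 (edgeR adjusted p = 0.162). Mir493 of the same region had 1.52, 1.37 and 2.08 CPM against 2.72, 3.82 and 3.897 CPM. The groups were separate in both. Other RNAs of the region differed less in size, with log2FCs of 0.24 ± 0.14 for Rian and 0.22 ± 0.20 for Mirg.

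Igfbp5, which binds insulin-like growth factors, had 177.4, 200 and 181.1 CPM in WT sedentary mice and 107, 89.3 and 85.1 CPM in SCA1 sedentary mice (log2FC −0.99 ± 0.24, edgeR adjusted p = 0.214), and its log2FC in exercised mice was −0.87. Car9, a carbonic anhydrase of the cell surface, had 6.91, 6.58 and 8.34 CPM against 1.48, 2.21 and 0.722 CPM, and its log2FC was −2.29 ± 0.46 in sedentary and −1.68 in exercised mice. In both genes the sedentary groups were separate. The extracellular matrix gene Fn1 had 44.6, 52.2 and 74.8 CPM in WT and 102, 113 and 108 CPM in SCA1 sedentary mice, while its log2FC in exercised mice was −0.30.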
